A study of Homo sapiens with 6 samples.

Results

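The actin cytoskeleton genes described here were 10 genes taken by symbol from a table of 59008 gene symbols. They were the cytoplasmic actins ACTB and ACTG1, the smooth muscle actin ACTA2, the actin-binding protein TAGLN, the myosin light chain MYL9, the tropomyosins TPM1 and TPM2, the alpha-actinins ACTN1 and ACTN4, and the myosin heavy chain MYH9. All 10 reached a mean of at least 1 TPM over the 6 libraries, as did 14988 genes in the table. However, ACTA2, TAGLN, MYL9 and TPM2 owed most of that mean to a single cell line. TPM (transcripts per 1000000) is a unit in which read numbers are divided by transcript length and scaled to a fixed sum in each library, and the tropomyosin genes TPM1 to TPM4 only share its letters. TPM values hold no read counts, so the counting error behind each value is unknown.

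RNA was sequenced from Hey and SKOV3, both established lines grown from human ovarian carcinoma, in 3 states, with 1 library per state and line. Parental cells were untreated. Polyploid giant cancer cells (PGCCs) were obtained by exposing the cells to 500 nM paclitaxel, a drug that binds microtubules and blocks mitosis, for 16 h, and the treatment labels of both lines give 3 days of recovery in drug-free medium, although the SKOV3 library is titled day 7. Daughter cells had the same exposure and 30 days of recovery. Both daughter libraries are titled clone 1, which may mean that each stands for a single clone. Since no state was replicated within a line, differences within a line were compared with the share of all genes that moved as far, and the other line was the only repeat.

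Actin monomers assemble into filaments that give a cell its shape, and the beta and gamma forms encoded by ACTB and ACTG1 build the filaments of nonmuscle cells. Tropomyosins lie along the filament and govern which proteins can bind it, alpha-actinins tie filaments into bundles at adhesions and stress fibres, and myosin II slides filaments past each other to pull on adhesions and to close the cleavage furrow at cytokinesis. Many of these genes are known targets of serum response factor (SRF), which binds a motif called the CArG box and is driven by coactivators that sense the pool of free actin monomers.

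Levels in TPM can be compared between genes because they are set per transcript length. The 2 cytoplasmic actins made up most of the summed level of the 10 genes, which ran from 3151 to 7477 TPM. ACTA2, TAGLN, MYL9 and TPM2 were each abundant in only some libraries. The 7 smooth muscle markers MYH11, ACTG2, CNN1, DES, LMOD1, MYOCD and SYNPO2 summed to between 0.167 and 2.86 TPM, and the highest of them was CNN1 at 1.96 TPM in SKOV3 daughter cells. Striated muscle markers summed to at most 0.404 TPM, and leukocyte markers to at most 0.851 TPM. Epithelial markers summed to between 1036 and 3161 TPM. In Hey these sums came almost wholly from the keratins KRT7, KRT8 and KRT18. CDH1 was at most at 0.0283 TPM there, EPCAM at 1.43 TPM and KRT19 at 3.601 TPM. In SKOV3 the same genes, in this order, reached 8.35, 68.8 and 711 TPM. PAX8, a transcription factor of Müllerian epithelium, was at 54.7 to 136 TPM in the 6 libraries. Of the other ovarian carcinoma markers, MUC16 and WT1 stayed under 5 TPM. MSLN was at 0.386 TPM in Hey and 1.85 TPM in SKOV3 daughter cells, and at 21.5 to 46.1 TPM elsewhere. Fibroblast markers summed to between 3.13 and 28.3 TPM. Of the endothelial markers, the cadherin CDH5 was at 33.2 to 48.5 TPM in Hey, while PECAM1 and VWF were at most at 0.272 and 0.0988 TPM there.

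The 3 stretches of sequence shown here lie upstream of transcription starts and belong to 3 of the 7 genes with a promoter entry. They were taken from RefSeq promoters on GRCh38.p14, and bases that belong to exons of other transcripts were removed. The ACTG1 stretch is shown because this actin differed between PGCCs of the 2 lines, the ACTA2 stretch because the gene was abundant in Hey only, and the TPM2 stretch because of the low level in SKOV3 daughter cells. Capitals mark a CArG box (CC, then 6 letters that are A or T, then GG) in ACTG1 and the letters TATAA in ACTA2, and each stretch is given 5′ to 3′ on the minus strand, which is the coding strand of all 3 genes.
ACTG1, chr17:81512852-81513049: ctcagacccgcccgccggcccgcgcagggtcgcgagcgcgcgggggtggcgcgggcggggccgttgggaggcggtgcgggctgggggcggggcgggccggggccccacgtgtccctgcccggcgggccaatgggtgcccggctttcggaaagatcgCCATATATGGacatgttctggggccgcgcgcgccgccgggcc
ACTA2, chr10:88952774-88953023: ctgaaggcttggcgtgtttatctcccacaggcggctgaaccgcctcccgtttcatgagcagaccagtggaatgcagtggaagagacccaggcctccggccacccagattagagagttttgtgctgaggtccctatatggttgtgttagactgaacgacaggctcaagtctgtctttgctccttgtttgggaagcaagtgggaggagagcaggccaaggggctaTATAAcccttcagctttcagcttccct
TPM2, chr9:35690057-35690306: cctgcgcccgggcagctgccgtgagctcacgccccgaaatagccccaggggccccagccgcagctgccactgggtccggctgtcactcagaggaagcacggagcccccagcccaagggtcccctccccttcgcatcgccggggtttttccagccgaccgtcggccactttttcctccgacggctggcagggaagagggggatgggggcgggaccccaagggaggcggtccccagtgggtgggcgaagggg
The CArG box began 94 bases upstream of the ACTG1 start, and TATAA began 27 bases upstream of the downstream ACTA2 start. Both of these stretches lie inside the span of their gene, since longer transcripts start further upstream, and the TPM2 stretch lies in the gap between TPM2 and its neighbour TLN1. Among 35116 RefSeq promoter windows of 250 bases, searched on both strands, 1.16% held a CArG box and 18.9% held TATAA. Of the 10 genes, 7 had promoter entries, with 13 windows in all, while ACTB, TAGLN and MYL9 had none and were not searched. A CArG box was found in 2 windows, those of ACTG1 and of an internal ACTN1 start. Only exact matches were counted. The ACTA2 stretch holds the letters ccctatatgg and ccttgtttgg, each a single letter away from the pattern, which were neither marked nor counted. These matches describe the letters in the windows and say nothing of binding.

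ACTB encodes beta-actin (chromosome 7, 5526409 to 5563902, GRCh38, minus strand). Its level in Hey was 3105 TPM before treatment, 1379 TPM in PGCCs and 3033 TPM in daughter cells. The SKOV3 levels were 2080.1, 1944 and 1948 TPM in the same order. Hey PGCCs thus held the lowest value of the 6 libraries, and the 3 SKOV3 libraries lay close together. Differences are given here as differences of log2(TPM + 1), and a gene was called higher or lower at a difference of at least 1, which is 2-fold. For ACTB the difference between Hey PGCCs and parental cells was −1.17, and that between Hey daughter cells and PGCCs was 1.14. After quantile normalization the first was −0.97, short of 2-fold. TPM is a share of each library, so a lower TPM does not by itself mean less RNA of a gene per cell. In these bulk libraries, fewer cells that express a gene, less of its RNA per cell and more of other RNA cannot be told apart.

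ACTG1, the gamma-actin gene (chromosome 17, 81509413 to 81523847, minus strand), was at 1667 TPM in parental Hey, 754 TPM in PGCCs and 1089 TPM in daughter cells. Its SKOV3 levels were 1812, 3697 and 2121 TPM. PGCCs were therefore the lowest Hey library and the highest SKOV3 library for this gene, with differences from parental cells of −1.14 in Hey and 1.03 in SKOV3. Both lie close to 2-fold. The Hey difference was −0.87 after quantile normalization and −0.99 with mitochondrial genes left out, which took 2.64% of the summed TPM in Hey parental cells and 12.3% in Hey PGCCs. The SKOV3 difference was 0.96 with median-ratio scaling and 0.98 after quantile normalization. By TPM, ACTG1 held rank 18 among all genes in SKOV3 PGCCs, rank 63 in SKOV3 parental cells and rank 166 in Hey PGCCs.

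The ratio of ACTG1 to ACTB separated the lines. The Hey ratios were 0.537, 0.547 and 0.359 in the 3 states, from parental to daughter cells. The SKOV3 ratios were 0.871, 1.90 and 1.09, so that ACTG1 exceeded ACTB in PGCCs and daughter cells of that line only. The 2 actins together formed 0.518%, 0.234% and 0.452% of the summed TPM in the same 3 states of Hey and 0.426%, 0.617% and 0.446% in those of SKOV3. PGCCs thus had the lowest share in Hey and the highest in SKOV3. Both genes have many near-identical processed copies in the genome, and the counting could split reads among them. The 33 listed copies summed to between 1.70 and 7.58 TPM, at most 0.196% of ACTB and ACTG1 together.

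**Figure D1:**
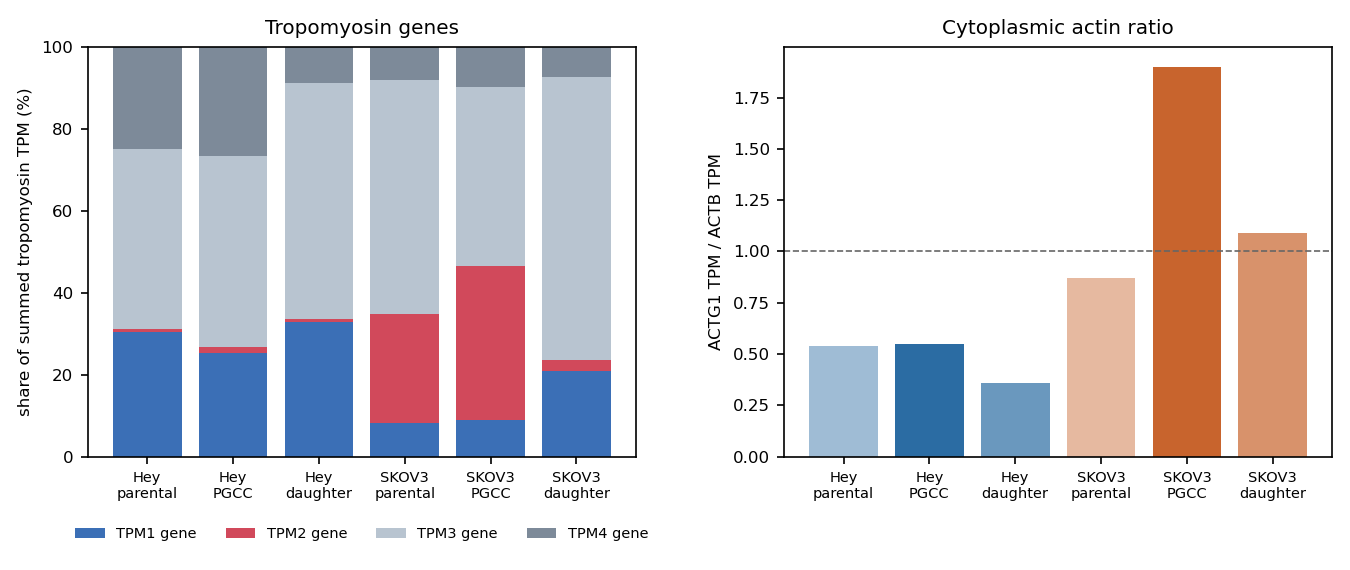
Left, share (%) of the summed TPM of the 4 tropomyosin genes held by TPM1, TPM2, TPM3 and TPM4 in each library. Right, ratio of ACTG1 to ACTB TPM in each library, with a dashed line at 1. Each bar is 1 library, TPM2 runs from 0.586% in Hey daughter cells to 37.7% in SKOV3 PGCCs, and the actin ratio is highest in SKOV3 PGCCs at 1.90.

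ACTA2 encodes the actin of smooth muscle and of activated fibroblasts (chromosome 10, 88935074 to 88991339, minus strand). Parental Hey had 47.3 TPM, Hey PGCCs 54.7 TPM and Hey daughter cells 56.3 TPM. The SKOV3 levels were 1.02, 1.38 and 1.36 TPM. The values of the 2 lines did not overlap, and within a line the states differed by at most 0.24 on the log2 scale. None of the 4 remaining actin genes (ACTA1, ACTC1, ACTG2 and ACTBL2) reached a mean of 1 TPM.

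TAGLN, also called SM22 and known as an actin-binding protein of smooth muscle (chromosome 11, 117199370 to 117207464, plus strand), was higher in every SKOV3 library than in any Hey library. In Hey it was at 0.162 TPM without drug, 3.66 TPM in PGCCs and 0.309 TPM in daughter cells. Its SKOV3 levels were 53.7, 26.7 and 84.4 TPM. Hey PGCCs held the highest Hey value and SKOV3 PGCCs the lowest SKOV3 value. The summed smooth muscle markers were highest in the same library of each line, at 1.70 TPM in Hey PGCCs and 2.86 TPM in SKOV3 daughter cells, mostly from CNN1 (1.19 and 1.96 TPM). The summed fibroblast markers were likewise highest there, at 16.6 and 28.3 TPM. Most of the Hey sum was FAP, at 12.95 TPM in PGCCs and 11.3 TPM in parental cells. The fibroblast sum of parental Hey was thus already 11.6 TPM, where TAGLN was at 0.162 TPM. LUM and COL1A1 were at 1.55 and 1.21 TPM in Hey PGCCs, against 0 and 0.169 TPM in parental Hey. In SKOV3 daughter cells COL1A1 and PDGFRB were at 16.3 and 5.35 TPM, while LUM and DCN were at their SKOV3 lowest, at 5.56 and 0.0292 TPM. SKOV3 parental cells had more TAGLN than PGCCs, but their smooth muscle sums were 0.408 and 0.804 TPM. The fibroblast sums of these states were 13.16 and 13.21 TPM. The part of the markers in the TAGLN values was not tested. PGCCs differed from parental cells by 2.0 in Hey and by −0.98 in SKOV3, and daughter cells differed from PGCCs by −1.83 in Hey and by 1.62 in SKOV3. Since the Hey values lie near the constant of 1 added to TPM, the log2 differences understate the ratios in that line, and with 0.1 added in place of 1 the difference between Hey PGCCs and parental cells was 3.84.

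MYL9 encodes a regulatory light chain of smooth muscle and nonmuscle myosin II (chromosome 20, 36541497 to 36551447, plus strand). The Hey levels were 5.91 TPM for parental cells, 12.7 TPM for PGCCs and 3.39 TPM for daughter cells. SKOV3 parental cells had 0.171 TPM, SKOV3 PGCCs had 0.267 TPM, and the SKOV3 daughter library lists the gene at 0. Hey PGCCs were highest, 0.99 above parental cells and thus just short of 2-fold, which it passed with mitochondrial genes left out (1.13). The difference between Hey daughter cells and PGCCs was −1.64. The closely related light chain genes MYL12A and MYL12B were each at 729 to 1525 TPM in every library, and MYL9 was at most 0.510% of the sum of the 3.

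**Figure D2:**
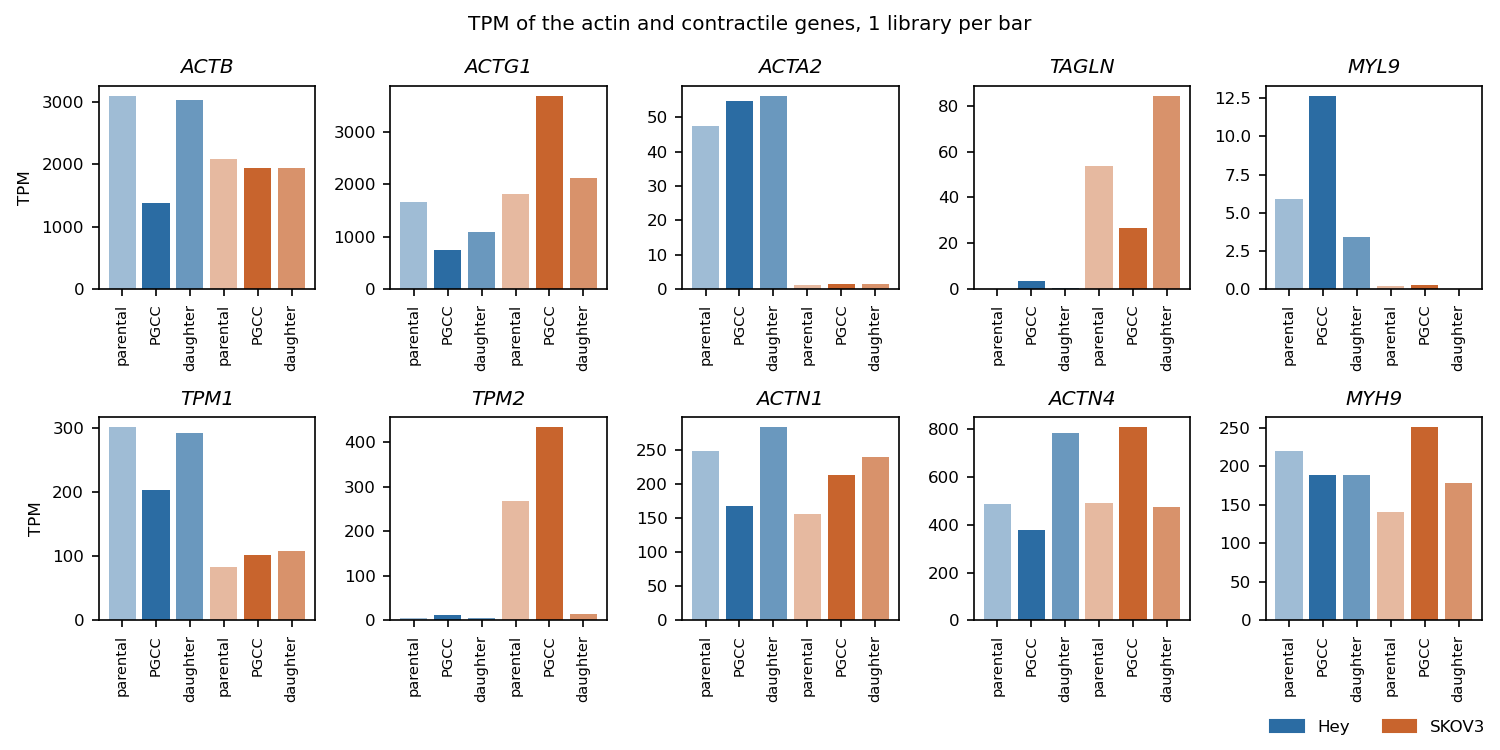
TPM (vertical axis, linear, from 0, with its own scale in each panel) of the 10 genes in the 6 libraries. Each bar is 1 library, Hey in blue and SKOV3 in orange, with the state below the bar. ACTA2 and MYL9 stand above SKOV3 in every Hey library, TAGLN and TPM2 stand above Hey in every SKOV3 library, and TPM2 is at 14.4 TPM in SKOV3 daughter cells against 268 and 434 TPM in the other 2 SKOV3 libraries.

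TPM2, or beta-tropomyosin (chromosome 9, 35681992 to 35690056, minus strand), had the widest difference between states of the 10 genes. Among SKOV3 libraries it was at 268 TPM without drug, 434 TPM in PGCCs and 14.4 TPM in daughter cells. The Hey levels were 5.95, 11.3 and 5.23 TPM. SKOV3 daughter cells thus stood near the Hey libraries and far from the other SKOV3 libraries. The difference of SKOV3 daughter cells was −4.13 from parental cells and −4.82 from PGCCs, and TPM2 held ranks 502, 279 and 7797 in the SKOV3 states, from parental to daughter cells. In Hey the difference between daughter cells and PGCCs was −0.98, and it lay between −1.03 and −1.12 under the 5 other ways of scaling. The neighbouring gene TLN1, which encodes the adhesion protein talin (chromosome 9, 35696948 to 35732195, minus strand), was at 79.7, 186 and 158 TPM in the 3 SKOV3 states. It is the only neighbour given here, and the cause of the TPM2 level was not tested.

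TPM1, or alpha-tropomyosin (chromosome 15, 63042620 to 63071915, plus strand), was at 302, 203 and 293 TPM in the 3 Hey states, in the same order as above. The SKOV3 levels were 83.6, 102 and 108 TPM. All Hey values lay above all SKOV3 values, and no state differed from another by 2-fold within a line. The differences of PGCCs from parental cells were −0.57 in Hey and 0.29 in SKOV3.

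The tropomyosin genes differed between libraries both in their sum and in their make-up. The 4 genes summed to 990.3, 804 and 891 TPM in Hey and to 1012, 1151 and 521 TPM in SKOV3. TPM2 formed 26.5%, 37.7% and 2.76% of that sum in the 3 SKOV3 states, and at most 1.40% in Hey. TPM1 formed 8.27%, 8.89% and 20.8% in SKOV3 and 25.3% to 32.9% in Hey. SKOV3 daughter cells had the lowest sum, with TPM2, TPM3 and TPM4 all below the other SKOV3 states, TPM3 at 359.8 TPM against 578 and 501 TPM. TPM4, a nonmuscle tropomyosin, was at 246, 214 and 79.0 TPM in Hey and at 81.4, 114 and 38.1 TPM in SKOV3, lowest in the daughter cells of each line.

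ACTN1 (chromosome 14, 68874128 to 68979440, minus strand) and ACTN4 (chromosome 19, 38647649 to 38731589, plus strand) encode the nonmuscle alpha-actinins. ACTN1 was at 248, 167 and 284 TPM in Hey and at 156, 213 and 240.2 TPM in SKOV3, so daughter cells held the highest value in both lines. None of its differences within a line reached 2-fold. ACTN4, the more abundant of the pair in every library, was at 485, 376 and 781 TPM in Hey and at 492, 807 and 475 TPM in SKOV3. Daughter cells were the highest Hey library and the lowest SKOV3 library, with differences from PGCCs of 1.05 and −0.76. The Hey value was 0.98 with mitochondrial genes left out, just under 1 with median-ratio scaling, and 0.76 with a trend in GC content and length removed, where the SKOV3 value was −0.45.

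MYH9, the heavy chain of nonmuscle myosin IIA (chromosome 22, 36281280 to 36388010, minus strand), varied least of the 10 genes. It was at 220.4, 188 and 188 TPM in Hey and at 141, 251 and 178 TPM in SKOV3. The highest value was that of SKOV3 PGCCs, 0.83 above parental cells. MYH9 formed 84.1% to 96.6% of the summed TPM of the nonmuscle heavy chain genes MYH9, MYH10 and MYH14, and MYH14 was listed at 0 in every Hey library.

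The first question of the design was how PGCCs differed from the cells they came from. In Hey, 1 of the 10 genes was called higher in PGCCs than in parental cells (TAGLN) and 2 were called lower (ACTB and ACTG1), while 7.67% of the 14988 genes were called higher and 5.22% lower (12.9% in all). The median difference of the 10 genes was −0.30, against 0 for all genes. In SKOV3, 1 gene was called higher (ACTG1) and none lower, while 9.94% of all genes were called higher and 4.96% lower (14.9% in all), and the median of the 10 was 0.36 against 0.02. The remaining genes of the 10 stayed under 2-fold in this comparison. The difference of TPM2 was 0.82 in Hey and 0.69 in SKOV3, that of ACTA2 was 0.21 and 0.23, and that of ACTB was −1.17 and −0.10, so these 3 lay on the same side of 0 in both lines, also under the 5 other ways of scaling. MYL9 lay on the same side in the deposited values (0.99 in Hey and 0.11 in SKOV3) but was at −0.65 in SKOV3 with a trend in GC content and length removed. ACTG1, TAGLN, TPM1, ACTN1, ACTN4 and MYH9 lay on opposite sides in the deposited values. With the same trend removed, ACTN1 (−0.44 in Hey and −0.0014 in SKOV3) and ACTN4 (−0.18 and −0.02) lay on the same side. The share of all genes on opposite sides was not computed.

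The second comparison set daughter cells, 30 days after the drug, against parental cells. None of the 10 genes was called in Hey, where 6.31% of all genes were called higher and 3.73% lower (10% in all). The widest Hey differences were those of ACTN4 at 0.69, MYL9 at −0.65 and ACTG1 at −0.61. In SKOV3 TPM2 was called lower, while 15.1% of all genes were called higher and 6.34% lower (21.5% in all). TAGLN at 0.64 and ACTN1 at 0.62 had the next widest differences there. The medians of the 10 genes were −0.04 in Hey and 0.23 in SKOV3, against 0.05 and 0.15 for all genes.

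Daughter cells were also compared with the PGCCs that preceded them. In Hey, ACTB and ACTN4 were called higher and TAGLN and MYL9 lower in daughter cells, while 9.95% of all genes were called higher and 8.13% lower (18.1% in all). In SKOV3, TAGLN was called higher and TPM2 lower, while 14.6% of all genes were called higher and 9.25% lower (23.9% in all). The 3 comparisons within a line share libraries, so they are not independent of each other. Hey PGCCs held the highest or lowest Hey value for ACTB, ACTG1, TAGLN, MYL9, TPM1, TPM2, ACTN1 and ACTN4, which enters both comparisons made with them. The same held for SKOV3 PGCCs among SKOV3 libraries for ACTB, ACTG1, ACTA2, TAGLN, MYL9, TPM2, ACTN4 and MYH9. How many of all genes had their highest or lowest value in PGCCs was not counted.

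**Figure D3:**
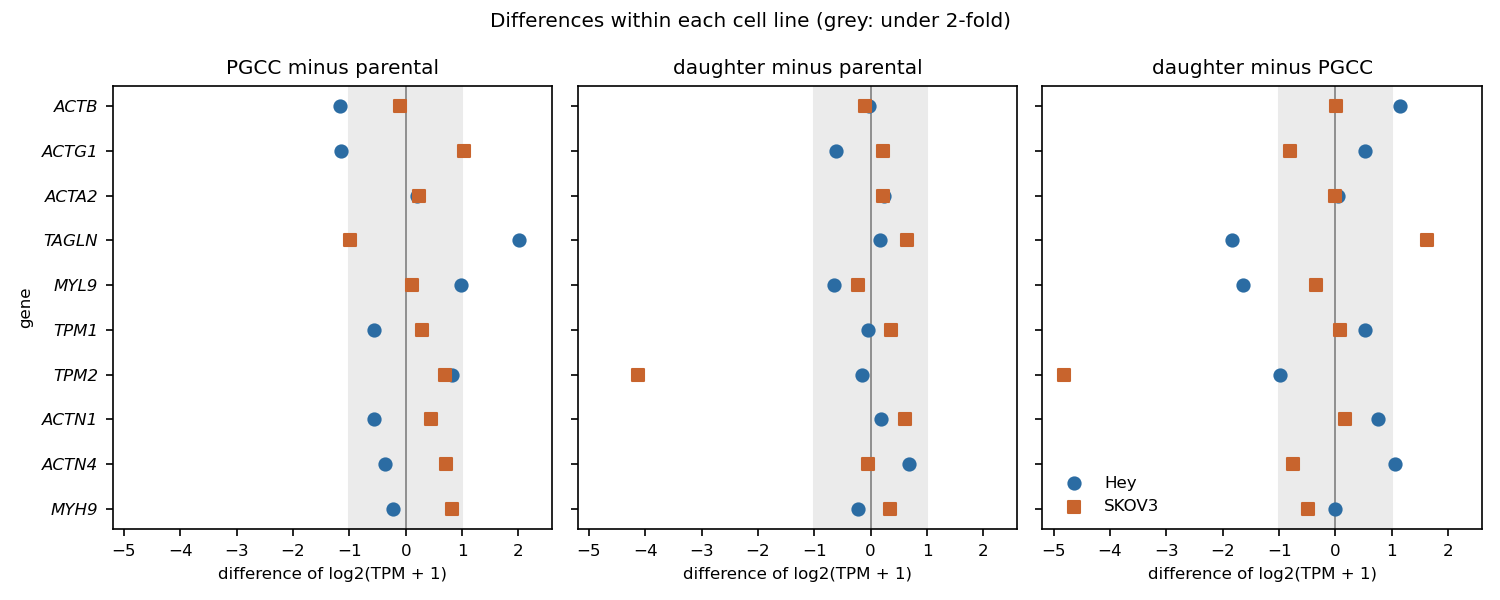
Difference of log2(TPM + 1) for each of the 10 genes between the states named above each panel, with 1 point per line (Hey, blue circles, and SKOV3, orange squares), each from 1 library against 1 library, and with differences under 2-fold shaded grey. The widest differences are those of TPM2 in SKOV3, −4.13 and −4.82, and in the panel of PGCCs against parental cells ACTG1 (−1.14 and 1.03) and TAGLN (2.0 and −0.98) lie far apart in the 2 lines.

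A test over both lines used limma with state and line as terms, in which the spread is the disagreement between the lines. None of the 10 genes had an adjusted p under 0.05 by limma for PGCCs against parental cells, where 0.02% of the 14988 genes did, nor for daughter against parental cells, where 0.0133% did, nor for daughter cells against PGCCs, where 0% did. At an unadjusted p under 0.05 the counts were 0, 1 and 1 of the 10 genes, against 2.73%, 3.39% and 5.06% of all genes, and the gene was TPM2 both times. Its limma estimate was −2.14 (SE 0.909, adjusted p = 1) for daughter against parental cells and −2.90 (SE 0.909, adjusted p = 0.908) for daughter cells against PGCCs. Both estimates rest on the SKOV3 daughter library. Without the Hey daughter library the estimates were −4.10 and −4.85, with adjusted p = 0.0498 and 0.0456 by limma, where 0.701% and 0.447% of all genes passed. In that fit SKOV3 alone holds a daughter library, which is assumed to vary like the other groups, and 1 residual degree of freedom is left. Without the SKOV3 daughter library the estimates were −0.19 and −0.95, with adjusted p = 1 and 0.857 by limma.

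Hey and SKOV3 were then compared within each state. Among parental cells, ACTA2, MYL9 and TPM1 were called higher in Hey than in SKOV3 and TAGLN and TPM2 lower, while 11.5% of all genes were called higher and 24.2% lower (35.7% in all). Among PGCCs, ACTA2 and MYL9 were called higher in Hey and ACTG1, TAGLN, TPM2 and ACTN4 lower, while 13.4% of all genes were called higher and 29.6% lower (43% in all). Among daughter cells, ACTA2, MYL9 and TPM1 were called higher in Hey and TAGLN and TPM2 lower, while 12.3% of all genes were called higher and 29.5% lower (41.8% in all). The counts of 5, 6 and 5 of the 10 genes were thus near the share of all genes in each state. The differences between Hey and SKOV3 parental cells were 4.58 for ACTA2, 1.84 for TPM1, −5.28 for TPM2 and −5.56 for TAGLN. For TPM2 the difference was −1.30 among daughter cells, and for TAGLN it was −2.57 among PGCCs, the states in which the lines were closest. With median-ratio scaling, the TPM2 difference among daughter cells was −0.93 and the ACTN4 difference among PGCCs was −0.79 in place of −1.10, both short of 2-fold. The TPM1 difference among PGCCs was 0.98, just short of 2-fold, and passed it at 1.29 with the same scaling. With that scaling 6 genes were called among PGCCs and 6 among daughter cells, the latter including ACTB at 1.05. Each of these values compares 1 library of a line with 1 library of the other.

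**Figure D4:**
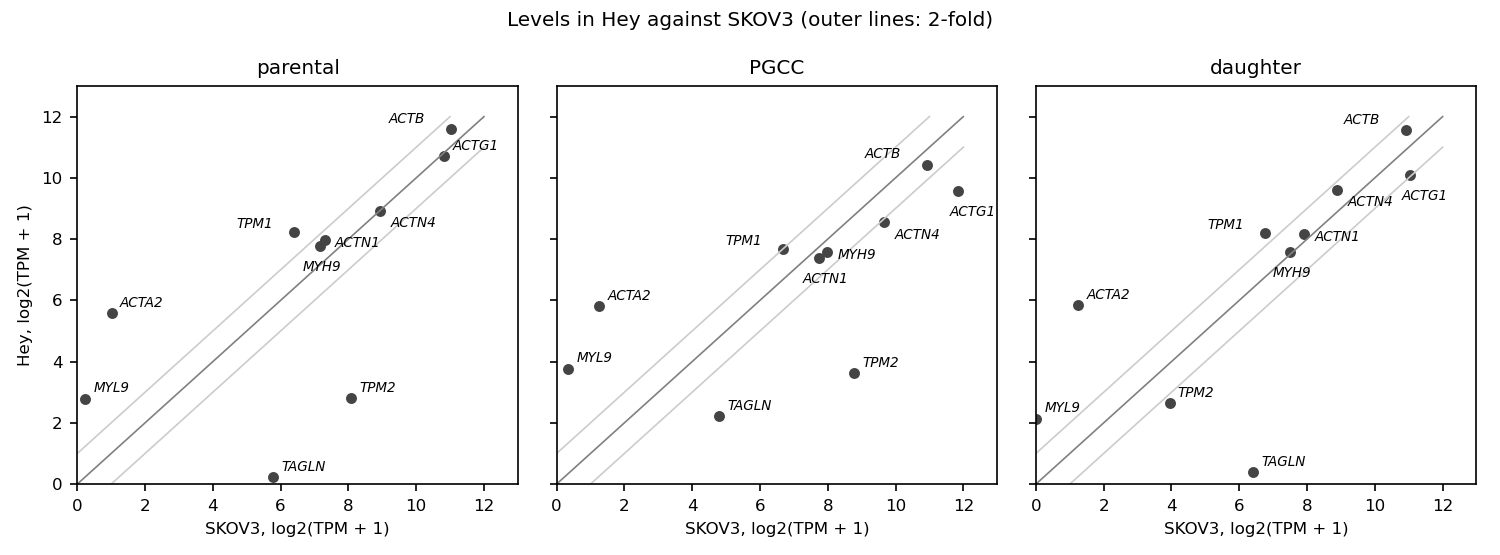
Level of each of the 10 genes in Hey (vertical axis) against SKOV3 (horizontal axis), both as log2(TPM + 1), in parental cells, PGCCs and daughter cells. Each point is 1 gene from 1 library per line, the dark diagonal marks equal levels and the grey lines mark 2-fold. ACTA2 and MYL9 lie above the upper grey line and TAGLN and TPM2 below the lower one in all 3 states, and ACTG1 leaves the diagonal among PGCCs, where the difference is −2.29.

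A wider list of 85 actin-related genes, of which 75 had a mean of at least 1 TPM, was read in the same way. In Hey PGCCs, 1 of the 75 was called higher than in parental cells (LCP1, a bundling protein best known from leukocytes) and 6 lower (CALD1, CIT, DIAPH3, FSCN1, MYH10 and SMTN), beside 7.67% and 5.22% of all genes. CIT, the kinase of the cytokinetic midbody, was at 31.8, 5.63 and 41.8 TPM in the Hey states, from parental to daughter cells, and LCP1 was at 0.886, 10.8 and 3.79 TPM. In SKOV3 PGCCs, 10 of the 75 were called higher (DAPK3, FLNA, FSCN1, GSN, MRTFA, SMTN, SRF, TLN1, VASP and ZYX) and 1 lower (PFN2), beside 9.94% and 4.96% of all genes. SRF was at 8.22 TPM in SKOV3 parental cells and 19.6 TPM in PGCCs, and its coactivator MRTFA was at 6.70 and 18.6 TPM. In Hey, SRF was at 15.1 and 9.39 TPM and MRTFA at 7.78 and 5.80 TPM in the same states. FSCN1, or fascin, a bundling protein of filopodia, was called lower in Hey PGCCs and higher in SKOV3 PGCCs, at 40.1 and 18.7 TPM in Hey and 19.9 and 62.6 TPM in SKOV3 for parental cells and PGCCs.

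For daughter against parental cells, 3 of the 75 were called higher and 5 lower in Hey, where 6.31% and 3.73% of all genes were, and 2 higher and 3 lower in SKOV3, where 15.1% and 6.34% were. ARPC1A and ARPC1B, the alternative forms of a subunit of the Arp2/3 complex that nucleates filament branches, were at 141 and 39.2 TPM in Hey parental cells and 487 and 153 TPM in Hey daughter cells. ENAH, which elongates filaments at the leading edge, was at 11.3 TPM in Hey parental cells and 1.46 TPM in Hey daughter cells but at 48.1 and 103 TPM in the same SKOV3 states. TPM4 was the only gene of the 75 that passed 2-fold the same way in Hey and SKOV3, being lower in daughter cells than in parental cells (−1.62 in Hey and −1.07 in SKOV3) and than in PGCCs (−1.42 and −1.55). The share of all genes that passed 2-fold the same way in both lines was not computed. Against PGCCs, 6 were higher and 6 lower in Hey daughter cells (9.95% and 8.13% of all genes), and 7 higher and 7 lower in SKOV3 daughter cells (14.6% and 9.25%). In SKOV3 the lower ones included CAPG, which caps filament ends, at 183 TPM in PGCCs and 42.1 TPM in daughter cells, and VASP, a partner of ENAH, at 55.6 and 13.7 TPM.

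Differences from SKOV3 PGCCs moved with the base composition of transcripts. Across 13468 genes with an annotated transcript, the Spearman correlation of the difference between PGCCs and parental cells with GC content was 0.721 in SKOV3 and −0.0447 in Hey, as a description across genes, which are not replicates. The 10 genes have transcripts of 50.9% to 60.2% GC, and the 4327 genes between 50% and 61% had a median difference of 0.46 in SKOV3 and −0.02 in Hey. After a trend fitted to GC content and length was subtracted, the SKOV3 median of the 10 genes was 0.02 in place of 0.36. ACTG1 was then at 0.66, ACTN4 at −0.02, MYH9 at 0.04 and TAGLN at −1.48, and none of the 75 genes of the wider list was called higher or lower. In Hey the 6 lower genes of the wider list became 3, and FSCN1 was at −0.93 in Hey and 0.61 in SKOV3, so that neither of its calls held. For daughter against parental SKOV3 cells the 2 higher genes became 0, with ENAH at 0.81, and for SKOV3 daughter cells against PGCCs, where the correlation with GC content was −0.455, the 7 higher and 7 lower became 2 and 5. The difference of ACTN4 between Hey and SKOV3 PGCCs was −0.0041 after the same step. In Hey the values of ACTB (−1.16), ACTG1 (−1.13) and TAGLN (2.14) stayed past 2-fold and MYL9 reached 1.08. The TPM2 differences of SKOV3 daughter cells were −4.29 and −4.43 after the same step.

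**Figure D5:**
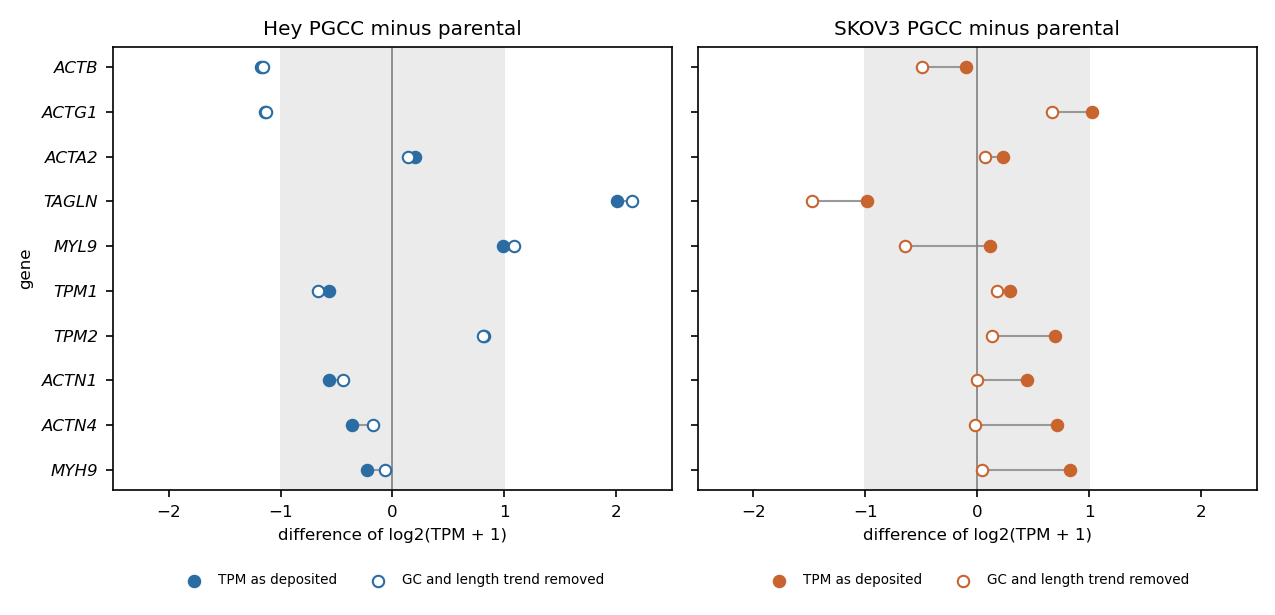
Difference of log2(TPM + 1) between PGCCs and parental cells for the 10 genes in Hey (left) and SKOV3 (right), from the deposited TPM (filled points) and after a trend fitted to GC content and length was subtracted (open points), each from 1 library against 1 library, with differences under 2-fold shaded grey. The SKOV3 points of ACTN1, ACTN4 and MYH9 move to about 0, and the Hey points move little.

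The genes nearest to each of the 10 in profile over the 6 libraries were found by the Euclidean distance between log2(TPM + 1) values centred on their mean. ACTG1 was nearest to SAMD1 (distance 0.119), ACTB to POLR1E (0.231) and TPM1 to MYOF (0.229). ACTA2 was nearest to TBX3 (0.406), which was at 25.3 to 33.1 TPM in Hey and at most 0.306 TPM in SKOV3. TAGLN was nearest to CRYAB (0.893) and MYL9 to GEM (0.497). TPM2 was nearest to LINC00431 (0.920), which was at 26.8, 31.4 and 1.16 TPM in the SKOV3 states and at most 0.301 TPM in Hey. ACTN1 was nearest to PRORP (0.144), ACTN4 to CENPX (0.150) and MYH9 to UBE3D (0.164). None of the 10 genes was among the 100 nearest of another, and the closest case was ACTN1, in place 180 from ACTB.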

How the data were processed

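Total RNA of 6 samples was sequenced. The authors trimmed reads with fastp, quantified them on the human transcriptome (hg38) with salmon 0.14.1 and deposited TPM per gene symbol, and how transcripts were summed to symbols is not given in the sources used here. Columns summed to 911825 to 920497 TPM, with 19920 to 25370 genes above 0.

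Differences of log2(TPM + 1) were called at 2-fold, with no p-value for 1 library against 1 library. The background was the 14988 genes that averaged 1 TPM or more. limma 3.58.1 in R 4.3.3 was fitted to these genes with state and line as terms (2 residual degrees of freedom), an intensity trend and Benjamini-Hochberg adjustment over all of them. Nothing states that libraries came from separate cultures. Positions are those of GENCODE 44. GC content and length of the Ensembl canonical transcript were fitted to each difference by lowess (fraction 0.3, 2 passes) and the trend subtracted. Other alternatives were a pseudocount of 0.1, leaving out mitochondrial genes, median-ratio scaling, quantile normalization, calls at 1.5-fold and at 3-fold, filters at a mean TPM of 5 and none, and limma without trend, line term or each library. Steps were tested on simulated data with Python 3.11.15.

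The members, lists, markers and rules were chosen with earlier results of these data known. Named were all 10 members, their 2 nearest genes or the nearer one, and from the wider lists genes past 2-fold the same way in both lines and the 2 with the largest difference in each comparison within a line. TLN1, SRF and MRTFA were picked for their values after these were seen, and other genes are named with the counts they belong to.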

Additional observations from a re-analysis of the deposited data

Results flagged for a closer look

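In 4 cases a gene moved at least 1.5-fold one way in Hey and at least 1.5-fold the other way in SKOV3. The share of all genes that met this rule was not computed. At 1.5-fold in either direction, 31.5% of all genes in Hey and 39.2% in SKOV3 were called for PGCCs against parental cells. For daughter cells against PGCCs, 39.2% in Hey and 46.7% in SKOV3 were called. Each value comes from 1 library against 1 library, and the difference between the lines was not tested. For PGCCs against parental cells, the difference of log2(TPM + 1) was −1.14 in Hey and 1.03 in SKOV3 for ACTG1. TAGLN had 2.0 in Hey and −0.98 in SKOV3 there. For daughter cells against PGCCs, it was −1.83 in Hey and 1.62 in SKOV3 for TAGLN, and 1.05 in Hey and −0.76 in SKOV3 for ACTN4. Differences from SKOV3 PGCCs followed GC content across genes, and with that trend removed the ACTN4 values were 0.76 in Hey and −0.45 in SKOV3, the latter under 1.5-fold.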

How the results depend on the processing

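Of 450 values of the 10 genes under 5 other ways of scaling, 412 kept their side of 2-fold, 15 fell short of it, 23 newly passed it, and 0 called values changed sign. The number of the 10 genes called moved by over 1.5 times in these cases, given with the share of all genes called under the same setting, and the cause was not tested. For PGCCs against parental cells in Hey, 3 genes were called, but 1 after quantile normalization (12%), 5 at 1.5-fold (31.5%) and 1 at 3-fold (4.66%). In SKOV3 the 1 gene became 2 with a pseudocount of 0.1 (21.7%), 2 with mitochondrial genes left out (15.3%), 0 after quantile normalization (14.4%), 5 at 1.5-fold (39.2%) and 0 at 3-fold (3.02%). For daughter against parental cells, the count of 0 in Hey became 3 at 1.5-fold (27.9%), and the 1 gene in SKOV3 became 2 with a pseudocount of 0.1 (27.4%; MYL9, listed at 0 in daughter cells, being the second) and 3 at 1.5-fold (41.7%). For daughter cells against PGCCs, 4 genes in Hey became 2 at 3-fold (6.91%), and 2 in SKOV3 became 4 at 1.5-fold (46.7%). Between the lines, 5 genes among daughter cells became 8 at 1.5-fold (62.7%) and 3 at 3-fold (24.2%).

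By limma, leaving out each library in turn gave 0 to 1 genes with an adjusted p under 0.05 for daughter cells against parental cells and against PGCCs, and 0 for PGCCs against parental cells. The 1 was TPM2 without the Hey daughter library, a fit in which 0.701% and 0.447% of all genes passed. The limma fit compares states within each line, since the line is a term in it, and without this replicate block the count was 0 for all 3 contrasts. Leaving out mitochondrial genes moved the median of all genes by 0.11 in Hey PGCCs against parental cells, from 0. Values of 1 library give no error, and without counts the precision of low genes such as MYL9 in SKOV3 and TAGLN in Hey is unknown.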
